A study of Mus musculus with 4 samples.

Results

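The genes of apelin signalling, arterial gap junctions and the Notch pathway described here were followed by dose across the endothelial subtypes of the mouse lung: Apln, Aplnr, Gja4, Gja5, Notch1, Notch4, Dll4, Jag1, Lfng and Hey1. They are 10 of the 20640 genes in the tables and were chosen by name, with earlier results of these data known. A share of all genes given beside a count of members is therefore a description and no test. Both groups were lungs of 8-week-old female C57BL/6 mice that carried HKP1 tumours, a lung cancer cell line given through the tail vein. One group was mock-irradiated (0 Gy) and the other received 4 Gy on each of 3 days, from day 10 to day 12 after the injection. Lungs were taken 24 to 48 hours after the last dose, live (DAPI-negative) cells without CD45, the surface protein of leukocytes, were sorted, and single-cell 3′ RNA libraries were made. Each dose was 1 library of cells from 4 mice per treatment. No label tells the mice of a library apart, so there is no replicate and no test of dose, and every interval below is a 95% interval that covers counting error only.

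As background, apelin is a secreted peptide that acts on the G protein-coupled receptor Aplnr of endothelial cells, and the pair is known for its part in vessel growth and in the division of labour among lung capillary cells. The alveolar capillary bed holds general capillary cells, which repair it, and aerocytes, the large thin cells specialised for gas exchange. In Notch signalling a ligand on 1 cell (Dll4 or Jag1) binds a receptor on its neighbour (Notch1 or Notch4), the glycosyltransferase Lfng modifies the receptor and tunes which ligand it answers, and the cut receptor moves to the nucleus with the DNA-binding protein Rbpj to switch on targets such as the repressor Hey1. In arteries this pathway is known to maintain arterial identity together with the connexins Gja4 (Cx37) and Gja5 (Cx40), which form gap junctions between endothelial cells.

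All 10 are protein-coding genes in the GENCODE annotation of GRCm38. Apln lies at chrX:48025146-48034853 on the minus strand and Aplnr at chr2:85136225-85139923 on the plus strand. The connexin genes are Gja4 at chr4:127311421-127314039 (minus) and Gja5 at chr3:96904693-97077416 (plus). The receptors are Notch1 at chr2:26457903-26516663 (minus) and Notch4 at chr17:34564268-34588503 (plus), and the ligands are Dll4 at chr2:119325784-119335962 (plus) and Jag1 at chr2:137081456-137116644 (minus). Lfng lies at chr5:140607320-140615545 (plus) and Hey1 at chr3:8663359-8667256 (minus). Gja5, Notch1, Notch4 and Dll4 overlap annotated genes on the opposite strand, and Notch1 also overlaps the microRNA gene Mir6996 on its own strand. No source used here says whether the counting used strand. Reads from the stretches that these 4 genes share with opposite-strand partners may therefore not have been told apart.

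The 250 bases before the transcription start were read from RefSeq (GRCm38.p6) for the 8 members found there. They are shown for 3 genes that the results turn on: Gja4, which was lower in most gates at 4 Gy, Dll4, the Notch ligand of arteries and capillaries, and Lfng, the member whose window held the sequence that Rbpj binds. Capitals mark TGGGAA, the core of that sequence, on either strand (TTCCCA when read in reverse). The windows are chr4:127314040-127314289 on the minus strand for Gja4, chr2:119325534-119325783 on the plus strand for Dll4 and chr5:140607091-140607340 on the plus strand for Lfng.
Gja4: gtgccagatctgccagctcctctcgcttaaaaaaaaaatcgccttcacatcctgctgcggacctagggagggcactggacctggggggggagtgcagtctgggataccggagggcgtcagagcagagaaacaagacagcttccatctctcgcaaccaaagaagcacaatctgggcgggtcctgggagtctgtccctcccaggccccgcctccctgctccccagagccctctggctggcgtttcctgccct
Dll4: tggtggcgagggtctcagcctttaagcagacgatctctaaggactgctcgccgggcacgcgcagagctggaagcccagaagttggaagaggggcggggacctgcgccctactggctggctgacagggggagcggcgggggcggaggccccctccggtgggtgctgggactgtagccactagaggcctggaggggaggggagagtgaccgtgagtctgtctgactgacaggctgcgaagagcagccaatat
Lfng: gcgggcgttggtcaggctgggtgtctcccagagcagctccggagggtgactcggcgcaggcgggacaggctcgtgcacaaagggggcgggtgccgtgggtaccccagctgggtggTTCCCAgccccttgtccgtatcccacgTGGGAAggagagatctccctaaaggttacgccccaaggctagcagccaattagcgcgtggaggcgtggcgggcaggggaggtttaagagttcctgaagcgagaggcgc
The Lfng window had 2 matches, which began 135 and 108 bases before the start, and the other 7 windows had none. Of 32851 RefSeq promoter windows of this length, 21.6% held at least 1 match. CACGTG, an E-box of the kind that basic helix-loop-helix factors bind, occurred in 1 of the 8 windows, again that of Lfng, where it shared 2 bases with the second TGGGAA match, and in 6.02% of all windows. A match describes letters in these windows and is no measurement of binding.

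Endothelial cells were gated on marker genes that do not include the 10 members. A cell counted as endothelial when it had UMIs of at least 3 pan-endothelial markers, more than of any other lineage, which held for 5139 of 5693 cells at 0 Gy and 3831 of 4164 at 4 Gy. The general-capillary gate (at least 3 of 7 markers such as Gpihbp1, Plvap, Cd93 and Ptprb, and fewer than 2 markers of any rarer subtype) held 4399 and 3263 cells. The aerocyte gate (at least 2 of 5 markers: Ednrb, Fibin, Tbx2, Rprml and Chst1) held 439 and 315 cells, the arterial gate (at least 2 of 9, among them Mgp, Bmx, Fbln2 and Sulf1) 64 and 67 cells, and the venous gate (at least 2 of 7, among them Slc6a2, Bst1 and Car8) 87 and 68 cells. Each gate is a range of a marker count and not a proven cell type. At the required number itself lay 24 and 23 aerocyte, 25 and 30 arterial, 35 and 17 venous and 241 and 255 general-capillary cells, at 0 Gy and 4 Gy.

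Aerocyte-gate cells had a median of 36 aerocyte-marker UMIs and 0 general-capillary-marker UMIs at 0 Gy, and 33 and 0 at 4 Gy. Arterial-gate cells had a median of 16 arterial and 16 general-capillary UMIs at 0 Gy, and 20 and 19 at 4 Gy, and venous-gate cells 20 venous and 19 general-capillary UMIs at 0 Gy, so cells of both gates also carried capillary markers. Venous markers had a median of 6 UMIs per arterial-gate cell at 0 Gy and 10 at 4 Gy. Their part in the arterial ratios was not tested. Median UMIs per cell were 1805 and 1964 in the general-capillary gate, 3286 and 3555 in the aerocyte gate, 2402 and 2975 in the arterial gate and 2351 and 3052.5 in the venous gate. Haemoglobin transcripts, which come from red blood cells, summed to 19455 CPM (UMI counts scaled to the total UMIs of the gate) in the arterial gate at 0 Gy and 54.6 CPM at 4 Gy, and to 19663 and 34.7 CPM in the venous gate. They summed to 2786 and 1308 CPM in the general-capillary gate and to 114 and 3241 CPM in the aerocyte gate. Their part in the results was not tested. The venous gate also used Vcam1 (223 CPM in that gate at 0 Gy and 743 CPM at 4 Gy) and Selp (29.5 and 108 CPM). Its markers Amigo2 (426 and 273 CPM) and Car8 (358 and 262 CPM) were lower at 4 Gy. Venous membership thus depends on genes that differ with dose, and its cells at the 2 doses need not be alike. The other gates share this limit. In the general-capillary gate Gpihbp1 (2565 and 1578 CPM) and Glp1r (999 and 637 CPM) were lower at 4 Gy. Lpl was higher there (330 and 551 CPM). The aerocyte marker Rprml was 398 and 223 CPM in its gate. The arterial markers Cytl1 and Cdh13 were 772 and 440 CPM and 146 and 253 CPM in theirs. The other markers used for these gates differed less. Vcam1 was 365 and 1321 CPM in the arterial gate. The libraries shared 12 cell barcodes.

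Cells of the general-capillary gate fell into different clusters at the 2 doses. When endothelial cells were clustered without the 10 members, 4 clusters (8, 9, 16 and 20) had 101 gate cells at 0 Gy and 1983 at 4 Gy, which is 2.30% and 60.8% of the gate. Their leading genes included Gdf15 and Cdkn1a, known targets of p53. The 11 clusters with at least 50 gate cells at each dose held 3372 and 1055 cells, 76.7% and 32.3% of the gate, and the largest of them at 0 Gy, cluster 14, had 553 and 101 cells. They included cluster 17, led by arterial markers, and cluster 19, led by venous markers. Of the 202 and 131 cells of cluster 17 the general-capillary gate held 155 and 86, and of the 144 and 138 cells of cluster 19 it held 65 and 68. In the aerocyte gate 416 of 439 cells at 0 Gy and 82 of 315 at 4 Gy lay in cluster 18, and 12 and 212 in cluster 23. A dose ratio over a whole gate therefore compares cells of different clusters, and general-capillary ratios are also given below within clusters, an alternative chosen after the values were seen. Those ratios leave out clusters 8, 9, 16 and 20, and so 60.8% of the gate at 4 Gy. They also leave out cluster 21 (17 and 15 gate cells) and 6 clusters with at least 50 gate cells at 0 Gy and under 50 at 4 Gy. Those 6 held 909 and 210 cells, 20.7% and 6.44% of the gate. The clusters were made from expression that itself differed with dose, so the 4 Gy cells kept were selected for likeness to 0 Gy cells. A ratio within clusters is thus no like-for-like check of the whole-gate ratio.

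Apln, the ligand, was high in the aerocyte gate and near 0 in the others. It measured 318 CPM there at 0 Gy (462 UMIs) and 296 CPM at 4 Gy (366 UMIs), a ratio of 4 Gy to 0 Gy of 0.930 (0.809 to 1.07). In the general-capillary gate it measured 2.60 and 3.11 CPM, so the aerocyte level was 123-fold (80.0 to 198) higher at 0 Gy and higher by a fold between 62.4 and 152 at 4 Gy. The arterial gate had no Apln UMI at either dose, where 3 UMIs would have been 15.7 and 11.7 CPM, and the venous gate had 2 UMIs at each. Aerocyte cells and the rest differed in the same way at both doses, and the interval of the dose ratio included 1.

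Aplnr, the receptor, had the opposite distribution. Its level in the general-capillary gate was 206 CPM at 0 Gy (1748 UMIs) and 78.1 CPM at 4 Gy (577 UMIs), a ratio of 0.379 (0.344 to 0.416), or 2.64-fold lower. In the aerocyte gate it was 10.3 and 12.9 CPM, from 15 and 16 UMIs. The venous gate gave 18 UMIs at 0 Gy and 4 at 4 Gy, a ratio of 0.203 (0.0501 to 0.616), and the arterial gate 5 UMIs at each dose. The receptor was thus highest by level in the general-capillary gate at both doses, with the venous gate below it at 0 Gy (0.368 of the general-capillary level, 0.217 to 0.583) and the aerocyte gate at 0.0501 of it (0.0280 to 0.0828). After each cell was thinned to 1000 UMIs, to give both doses one depth, 17.5% of general-capillary cells had an Aplnr UMI at 0 Gy and 6.80% at 4 Gy. The unthinned shares were 27.7% and 13.1%. In cells with epithelial markers, which should lack the receptor, 1.97% of 152 cells had an Aplnr UMI at 0 Gy and 0 of 93 at 4 Gy, at median depths of 5482 and 8041 UMIs. Among the 10 clusters with cells of both doses and at least 30 Aplnr UMIs, the ratio was below 1 in 8 and above 1 in 2, from 0.359 to 1.29, and its median of 0.714 did not pass the 1.5-fold line used here to call a difference. Summed over the 11 clusters with cells of both doses, Aplnr was 204 CPM at 0 Gy and 125 CPM at 4 Gy. That ratio of 0.614 (0.538 to 0.699) passed the line, though a sum does not hold the mix of clusters fixed. In clusters 8, 9, 16 and 20 Aplnr was 93.0 CPM at 0 Gy (20 UMIs) and 50.5 CPM at 4 Gy, a ratio of 0.543 (0.344 to 0.905). Summed over the 6 clusters with under 50 gate cells at 4 Gy only, the ratio was 0.633 (0.470 to 0.838), which passed the line.

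**Figure D1:**
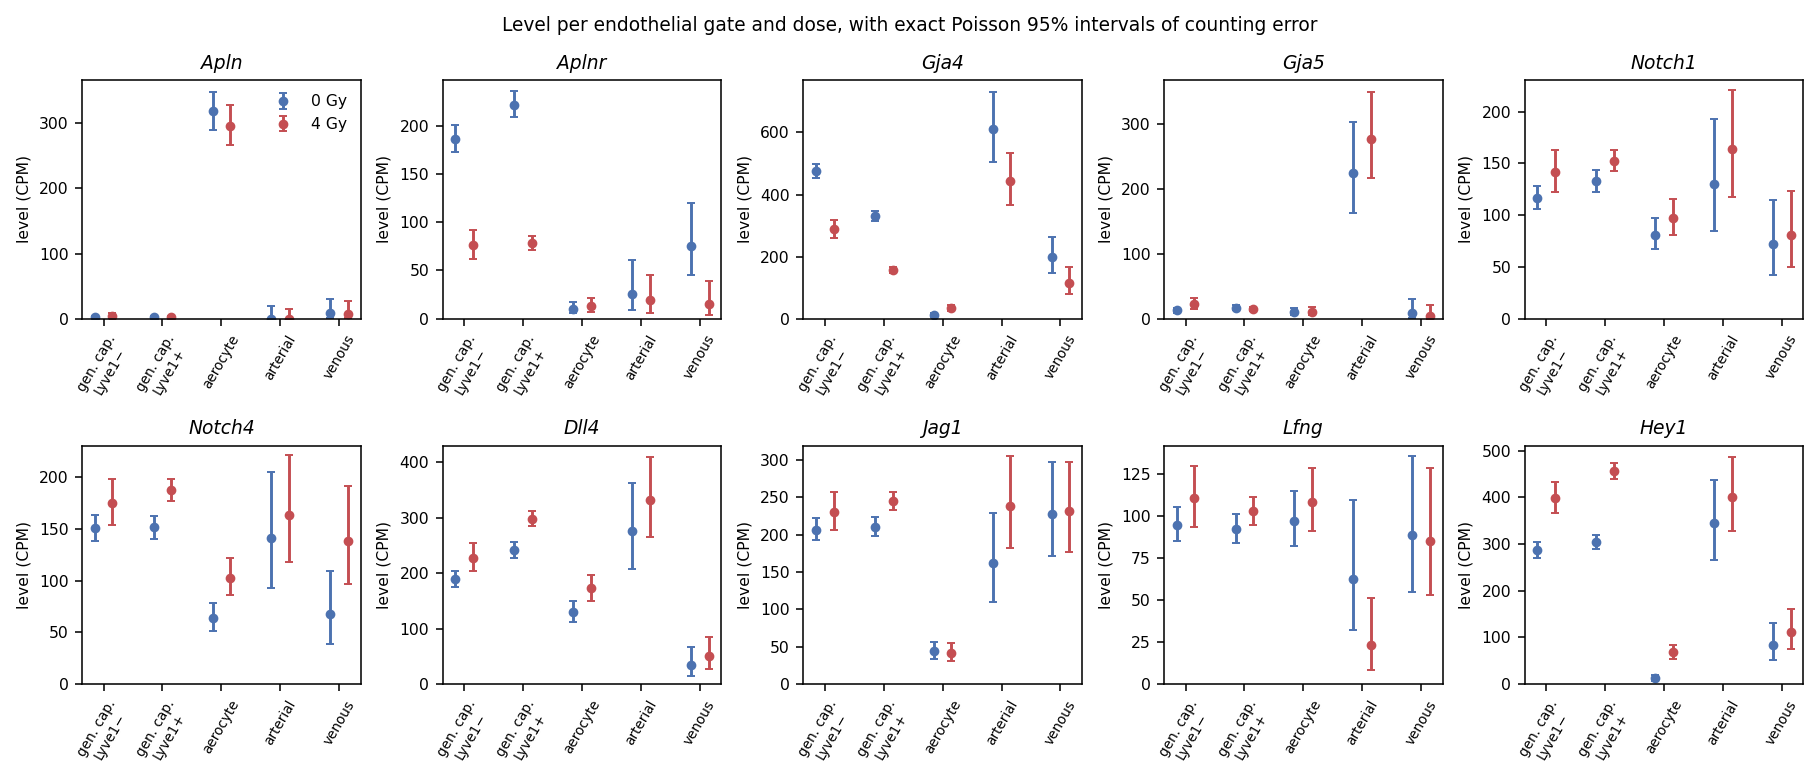
Level of each gene (CPM of the summed UMIs, linear axes from 0) in 5 endothelial gates at 0 Gy (blue) and 4 Gy (red), with exact Poisson 95% intervals that cover counting error only. Apln stands high in the aerocyte gate, Gja5 in the arterial gate, and Aplnr and Gja4 are lower at 4 Gy in both general-capillary gates.

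The connexins divided the vessel types. Gja5 was an arterial-gate gene at both doses: 224 CPM at 0 Gy (43 UMIs) and 277 CPM at 4 Gy (71 UMIs), against 14.6 and 16.1 CPM in the general-capillary gate, which is 15.3-fold (10.6 to 21.9) and 17.2-fold (12.6 to 23.2). Its dose ratio was 1.23 (0.833 to 1.85) in the arterial gate and 1.10 (0.849 to 1.43) in the general-capillary gate, and both intervals included 1. The aerocyte gate had 14 and 13 Gja5 UMIs and the venous gate 2 and 1. Of the 124 and 119 Gja5 UMIs of the general-capillary gate, 42 and 30 lay in cluster 17, which arterial markers led.

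Gja4 had a wider range and was lower at 4 Gy in 3 of the 4 main gates. In the general-capillary gate it was 395 CPM at 0 Gy (3348 UMIs) and 181 CPM at 4 Gy (1334 UMIs), a ratio of 0.457 (0.429 to 0.487). In the arterial gate it was 611 and 444 CPM, a ratio of 0.728 (0.557 to 0.950), which missed the 1.5-fold line. In the venous gate it was 198 and 116 CPM, from 47 and 30 UMIs, a ratio of 0.583 (0.356 to 0.942). The venous ratio missed the line with a stricter gate (0.751) and with clusters in place of gates (0.673), and was 0.305 with thinned cells, which hold fewer UMIs. The arterial level was above the general-capillary level 1.55-fold (1.27 to 1.86) at 0 Gy and 2.46-fold (2.01 to 2.98) at 4 Gy. Among general-capillary cells thinned to 1000 UMIs, 28.0% had a Gja4 UMI at 0 Gy and 14.2% at 4 Gy. Within the 11 clusters with cells of both doses the ratio was below 1 in 10, from 0.234 to 1.08, and its median of 0.705 missed the line. Summed over those clusters Gja4 was 389 and 266 CPM (0.683, 0.624 to 0.748), which also missed the line. In clusters 8, 9, 16 and 20 it was 330 CPM at 0 Gy (71 UMIs) and 133 CPM at 4 Gy (0.403, 0.315 to 0.523). Summed over the 6 clusters with under 50 gate cells at 4 Gy only, the Gja4 ratio was 0.641 (0.518 to 0.787), which passed the line. Cells with mural markers (pericytes and smooth muscle), a population known to express this connexin, gave 14 Gja4 UMIs in 30 cells and 4 UMIs in 13 cells. The summed mural markers in the general-capillary gate were 15.2 CPM at 0 Gy and 12.6 CPM at 4 Gy, and those in the arterial gate were 20.9 and 775.7 CPM, of which Acta2 made 713 CPM. The part of mural transcripts in the arterial ratio was not tested.

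The 2 Notch receptors had similar profiles over the gates. Notch1 was 126 CPM at 0 Gy (1066 UMIs) and 151 CPM at 4 Gy (1112 UMIs) in the general-capillary gate, a ratio of 1.20 (1.10 to 1.30). Notch4, a receptor found mainly in endothelium, was 151 CPM (1279 UMIs) and 185 CPM (1366 UMIs) there, a ratio of 1.23 (1.14 to 1.32). Neither receptor reached 1.5-fold in that gate, though both intervals lay above 1. In the arterial gate Notch1 was 130 and 164 CPM and Notch4 141 and 164 CPM, and each was within counting error of its own general-capillary level at both doses. The arterial Notch4 ratio of 1.16 was below 1 with thinned cells (0.587), with clusters in place of gates (0.757) and with equal weight per cell (0.761). The thinned value came from 11 of 60 cells with a Notch4 UMI at 0 Gy and 6 of 65 at 4 Gy. In the venous gate Notch4 was 67.4 CPM at 0 Gy (16 UMIs) and 139 CPM at 4 Gy (36 UMIs), a ratio of 2.06 (1.11 to 3.97), whereas Notch1 was 71.6 and 80.9 CPM with a ratio of 1.13 (0.567 to 2.28). With cells thinned to 1000 UMIs the venous Notch4 ratio was 1.49.

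Dll4, the ligand that marks arteries and capillaries, was 218 CPM at 0 Gy (1847 UMIs) and 285 CPM at 4 Gy (2104 UMIs) in the general-capillary gate, a ratio of 1.31 (1.23 to 1.39). It was 277 and 331 CPM in the arterial gate, 129 and 172 CPM in the aerocyte gate and 33.7 and 50.1 CPM in the venous gate, from 8 and 13 UMIs. The order from arterial and general-capillary through aerocyte to venous was the same at both doses, and the first pair did not differ beyond counting error at 0 Gy (1.27-fold, 0.947 to 1.67) or 4 Gy (1.16-fold, 0.925 to 1.44). Jag1, the other ligand, was 209 CPM (1770 UMIs) and 242 CPM (1789 UMIs) in the general-capillary gate, a ratio of 1.16 (1.08 to 1.24). Its level was 228 and 231 CPM in the venous gate and 44.1 and 42.0 CPM in the aerocyte gate. Unlike Dll4, it was as high in the venous as in the general-capillary gate within counting error (1.09-fold, 0.815 to 1.43, at 0 Gy). In the arterial gate Jag1 was 162 CPM from 31 UMIs and 238 CPM from 61 UMIs, a ratio of 1.47 (0.939 to 2.34).

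Lfng, which sets the balance between the ligands, was close to level over 3 gates. It was 93.2 CPM at 0 Gy (790 UMIs) and 104 CPM at 4 Gy (768 UMIs) in the general-capillary gate, 97.1 and 108 CPM in the aerocyte gate, and 88.5 and 84.7 CPM in the venous gate. The general-capillary ratio was 1.12 (1.01 to 1.23). The venous ratio of 0.957 was 0.731 with a stricter gate and 2.14 with thinned cells, so its direction depended on the setting. It rested on 21 and 22 UMIs, and thinning leaves fewer. The arterial gate had 12 and 6 UMIs, too few for a call.

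Hey1, the Notch target, was 297 CPM at 0 Gy (2513 UMIs) and 446 CPM at 4 Gy (3290 UMIs) in the general-capillary gate, a ratio of 1.5 (1.43 to 1.58) that lay on the line for a call. It was under the 1.5-fold line with a stricter gate (1.49), with thinned cells (1.48) and with median-of-ratios scaling (1.45). Within the 11 clusters with cells of both doses it was above 1 in 10, with a median of 1.26, which also missed the line. The arterial gate gave 344 and 402 CPM, a ratio of 1.17 (0.848 to 1.61), and the venous gate 84.3 and 112 CPM, a ratio of 1.32 (0.724 to 2.47). The venous ratio was 0.910 with a stricter gate and 4.07 with thinned cells, so its direction was not settled. That gate had 20 and 29 Hey1 UMIs, and thinning leaves fewer. In the thinned general-capillary cells 23.7% had a Hey1 UMI at 0 Gy and 33.5% at 4 Gy, against unthinned shares of 36.0% and 53.6%. Hey1 in the arterial gate was within counting error of the general-capillary level at both doses, and the venous level was 0.284 of it (0.173 to 0.440) at 0 Gy.

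**Figure D2:**
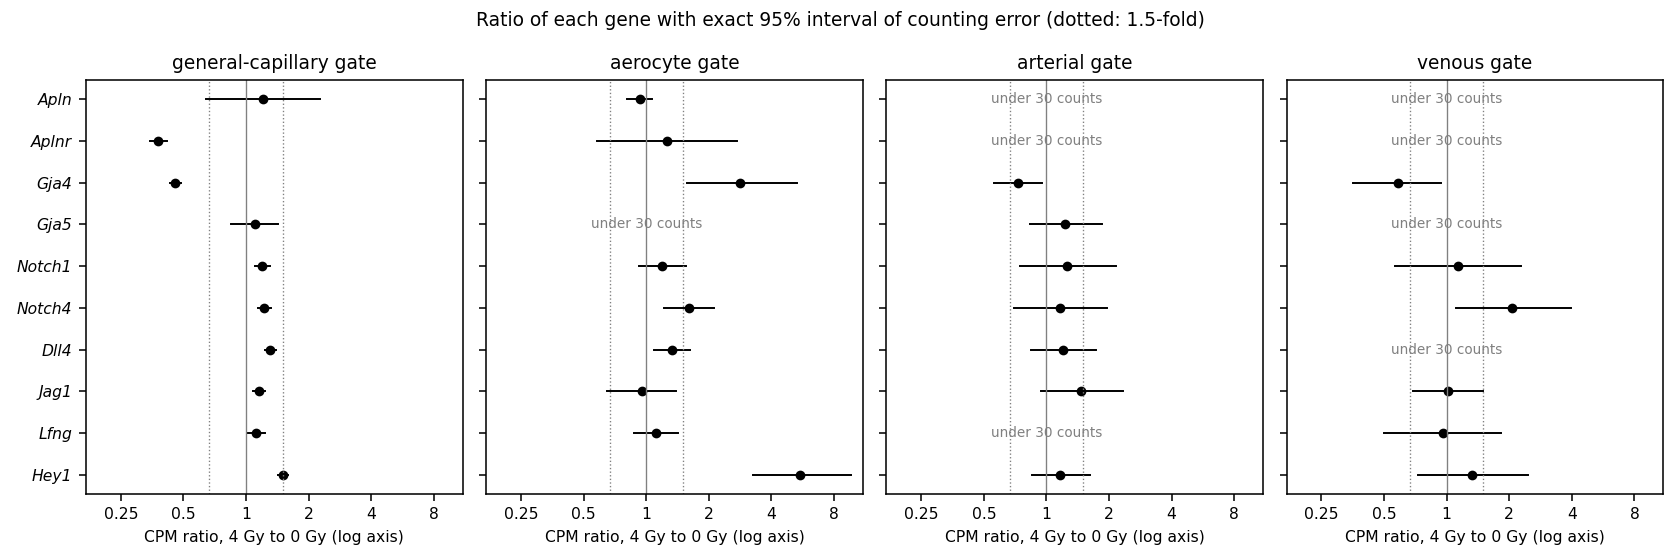
Ratio of the 4 Gy to the 0 Gy level (log axis) for each gene in 4 gates, with exact 95% intervals of counting error; dotted lines mark 1.5-fold and genes with under 30 UMIs over both libraries carry no point. Aplnr (0.379) and Gja4 (0.457) lie left of the lower line in the general-capillary gate, and Hey1 (5.48) and Gja4 (2.83) right of the upper line in the aerocyte gate.

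Read against all genes, the general-capillary gate had 2 of 10 members at least 1.5-fold lower at 4 Gy, Aplnr and Gja4, where 4.67% of 13091 measured genes (at least 30 UMIs over both libraries) were. It had 1 member at least 1.5-fold higher, Hey1, where 7.10% of genes were. The other 7 members passed neither line. Of the 8 members with enough UMIs for a median over the clusters with cells of both doses, 0 had a median past either line. With the UMIs of the 11 clusters summed, Aplnr (0.614) passed the lower line and Gja5 (1.68, 1.21 to 2.32) the upper line. No share of all genes is given for these clusters, and a sum does not hold their mix fixed. Of the 108 and 63 Gja5 UMIs summed, 42 and 30 lay in cluster 17, where the ratio was 1.06 (0.643 to 1.74). By interval alone, 6 members lay above 1 (Hey1, Dll4, Notch4, Notch1, Jag1 and Lfng), 2 below, and 2 (Apln and Gja5) included it. No share of all genes by interval is given, so this count is no result about the members. Genes with many UMIs have narrow intervals, and the median ratio of all measured genes was itself 1.03. The median log2 ratio of CPM + 5 was 0.18 for the members and 0.04 for all measured genes, so the whole table was shifted by little. In that same gate the summed level of the 13 arterial markers was 1546 CPM at 0 Gy and 891 CPM at 4 Gy, mostly through Cxcl12 (885 and 458 CPM) and Stmn2 (451 and 290 CPM), 2 markers that were also common outside the arterial gate. Summed general-capillary markers were 10570 and 9359 CPM. The part of either in the Aplnr and Gja4 ratios was not tested.

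**Figure D3:**
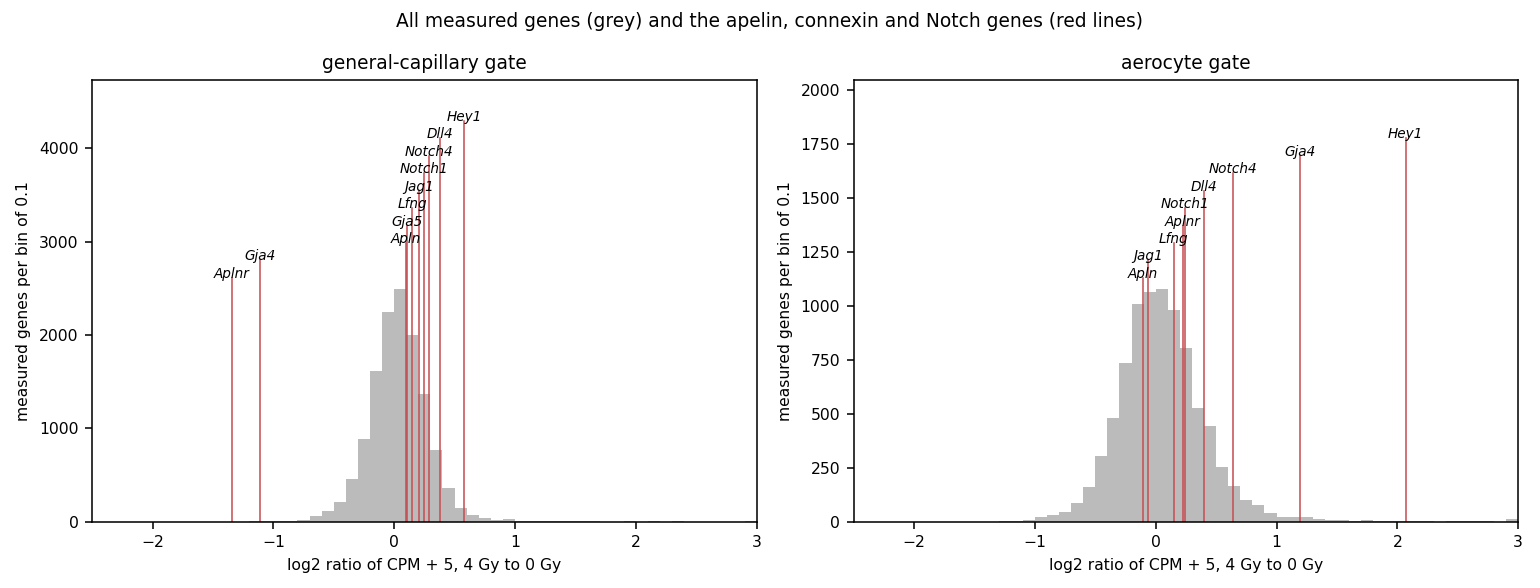
Number of measured genes (grey bars) by log2 ratio of CPM + 5, 4 Gy to 0 Gy, in bins of 0.1, with the members as labelled red lines, in the general-capillary gate (left) and the aerocyte gate (right). Aplnr and Gja4 lie in the far left tail on the left, and Gja4 and Hey1 in the right tail on the right.

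Lyve1, a hyaluronan receptor best known from lymphatic vessels, differed with dose in the general-capillary gate itself, with 755 CPM at 0 Gy and 1991 CPM at 4 Gy, so cells were also split by at least 1 Lyve1 UMI or none. The Lyve1-negative gate held 2113 and 719 cells and the Lyve1-positive gate 2286 and 2544. The split depends on a gene that differs with dose and on depth, and its groups at the 2 doses need not hold like cells. Haemoglobin transcripts summed to 1238 and 79.0 CPM in Lyve1-negative cells and to 4008 and 1587 CPM in Lyve1-positive cells. Their part in the ratios was not tested. Aplnr was lower at 4 Gy on both sides of the split, at 187 and 76.1 CPM in Lyve1-negative cells (ratio 0.408, 0.329 to 0.502) and at 222 and 78.6 CPM in Lyve1-positive cells (0.354, 0.317 to 0.395). Gja4 was likewise lower on both sides, at 476 and 288 CPM (0.604, 0.540 to 0.674) and at 331 and 156 CPM (0.472, 0.435 to 0.512). At 0 Gy the Gja4 level of Lyve1-positive cells was 0.696 (0.650 to 0.745) of that of Lyve1-negative cells.

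Hey1 was 287 and 399 CPM in Lyve1-negative cells (ratio 1.39 with an upper bound of 1.54) and 304 and 456 CPM in Lyve1-positive cells (1.5, 1.41 to 1.60). Dll4 was 189 and 228 CPM in Lyve1-negative cells and 241 and 298 CPM in Lyve1-positive cells, with ratios of 1.20 and 1.24. Gja5 passed the upper line in Lyve1-negative cells, at 12.6 CPM from 47 UMIs and 21.9 CPM from 30 UMIs (1.75, 1.07 to 2.82), and not in Lyve1-positive cells (0.910, 0.663 to 1.3). In both gates 2 members were at least 1.5-fold lower and 1 was higher. Of all measured genes, 5.62% were lower and 7.13% higher in the Lyve1-negative gate, and 4.56% lower and 7.62% higher in the Lyve1-positive gate. Whether the sides of the split differ in their response was not tested.

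**Figure D4:**
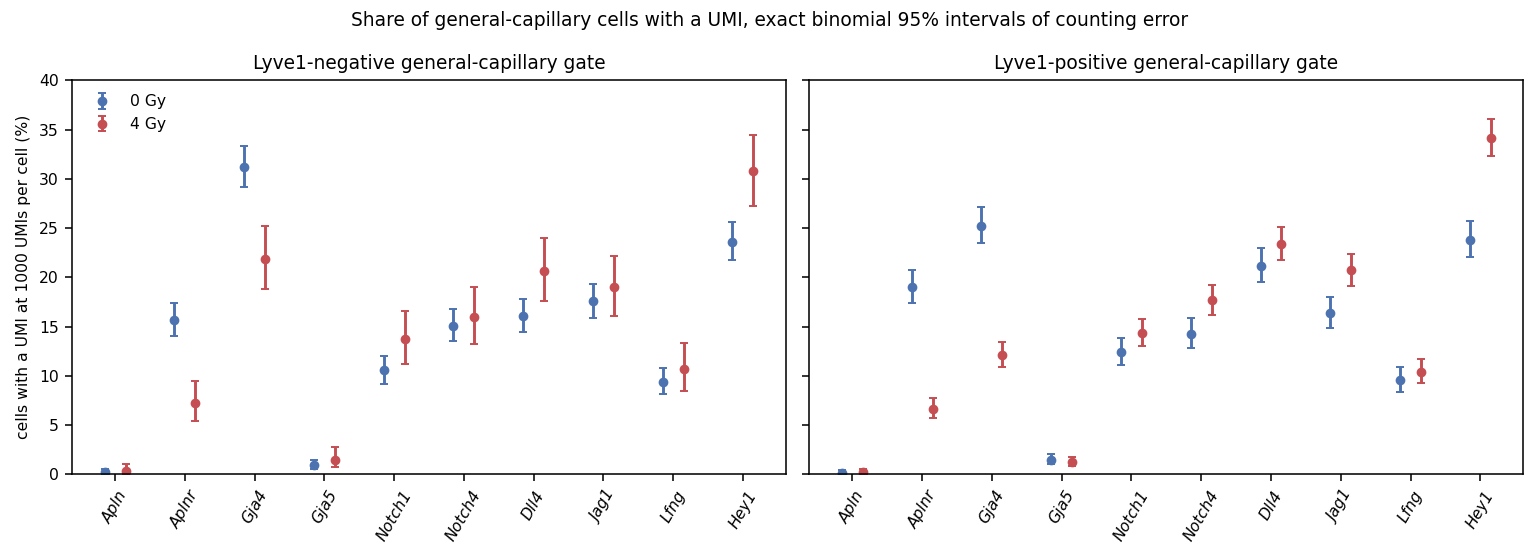
Share of cells with at least 1 UMI of each gene (%) among general-capillary cells thinned to 1000 UMIs, without Lyve1 UMIs (left) and with them (right), at 0 Gy (blue) and 4 Gy (red), with exact binomial 95% intervals of counting error. The Aplnr and Gja4 shares are lower and the Hey1 share higher at 4 Gy in both panels.

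In the aerocyte gate 3 members were at least 1.5-fold higher at 4 Gy and 0 lower, among 9 measured, where 9.99% and 4.40% of 8588 measured genes were. Hey1 was 12.4 CPM at 0 Gy (18 UMIs) and 67.9 CPM at 4 Gy (84 UMIs), a ratio of 5.48 (3.26 to 9.69). Gja4 was 11.7 CPM (17 UMIs) and 33.2 CPM (41 UMIs), a ratio of 2.83 (1.57 to 5.32), and Notch4 was 64.1 CPM (93 UMIs) and 103 CPM (127 UMIs), a ratio of 1.60 (1.22 to 2.12). Dll4 was 129 and 172 CPM (1.33, 1.09 to 1.63), while the ratios of Notch1, Aplnr, Lfng, Apln and Jag1 lay between 0.930 and 1.3 with intervals that included 1.

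General-capillary markers were higher in the same gate. Their sum was 530 CPM at 0 Gy and 1285 CPM at 4 Gy, with Plvap at 73.0 and 286 CPM, Cd93 at 61.3 and 248 CPM and Ptprb at 97.1 and 335 CPM, and 36 of 439 and 54 of 315 cells had UMIs of at least 3 such markers. Those 36 and 54 cells had median depths of 3645 and 5427.5 UMIs, and held 13 of the 18 and 79 of the 84 Hey1 UMIs, and 11 of the 17 and 39 of the 41 Gja4 UMIs. Of the Notch4 UMIs they held 12 of 93 and 50 of 127. Among the other 403 and 261 cells, a set chosen after the values were seen and made by leaving out cells with markers of the type where Hey1 and Gja4 are high, Hey1 had 5 and 5 UMIs (ratio 1.40, 0.323 to 6.10) and Gja4 had 6 and 2 UMIs (0.468, 0.0462 to 2.62). Notch4 was 61.8 and 82.4 CPM there (1.33, 0.964 to 1.85), and Dll4 129 and 149 CPM (1.15, 0.916 to 1.45). Apln was 316 and 316 CPM (0.998, 0.857 to 1.16). In that set 6 members still had 30 UMIs, and of these 0 were at least 1.5-fold higher, where 8.52% of 7981 measured genes were. Hey1, Gja4, Aplnr and Gja5 had fewer and could not be called. Jag1, with 52 and 21 UMIs, was past the lower line (0.567, 0.324 to 0.958), where 5.53% of genes were.

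**Figure D5:**
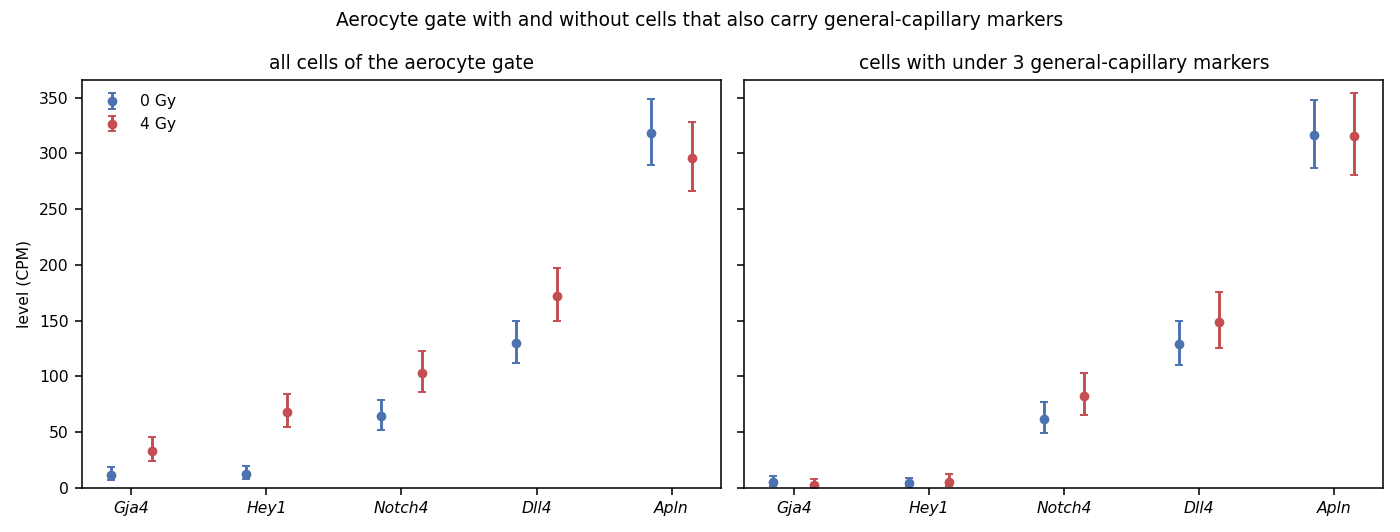
Level (CPM, linear axis from 0) of 5 genes at 0 Gy (blue) and 4 Gy (red) in all cells of the aerocyte gate (left) and in its cells with under 3 general-capillary markers (right), with exact Poisson 95% intervals of counting error. Hey1 and Gja4 are higher at 4 Gy on the left and near 0 at both doses on the right, and Apln is alike in both panels.

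The small arterial and venous gates limited what could be called. In the arterial gate 7 members were measured and 0 passed either line, where 9.00% of 3089 measured genes were lower and 12.2% higher. In the venous gate 6 members were measured, with Gja4 called lower and Notch4 higher, where 8.60% of 3408 genes were lower and 11.4% higher. Apln, Aplnr and Lfng in the arterial gate, and Apln, Aplnr, Gja5 and Dll4 in the venous gate, had under 30 UMIs over both libraries.

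Outside the endothelium most members were scarce in these sorted cells, which serves as a background for the values above. In the 152 and 93 cells with epithelial markers, Gja4 had 1 and 0 UMIs, Dll4 3 and 0, Hey1 3 and 8 and Notch4 1 and 3. Jag1 stood apart, with 168 CPM (178 UMIs) and 207 CPM (154 UMIs) in epithelial-marker cells, and 81.8 CPM (54 UMIs) and 178 CPM (83 UMIs) in the 61 and 36 fibroblast-marker cells. In the endothelial general-capillary gate the summed epithelial markers were 47.9 and 106 CPM and the summed fibroblast markers 8.61 and 10.6 CPM. The part of those transcripts in the Jag1 ratio was not tested.

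Other genes of the pathways were read from lists chosen by function. Of 30 other Notch genes, such as the receptors Notch2 and Notch3, the ligands Dll1 and Jag2, the processing enzymes and Hes and Hey family targets, 24 were measured in the general-capillary gate and 0 passed either line, with a median log2 ratio of 0.06. Of 9 other apelin-pathway genes, among them G protein and arrestin genes and the apelin-processing protease gene Furin, 6 were measured and 0 passed. Of 21 arterial and venous identity genes 19 were measured, and only Ets1, an endothelial transcription factor gene, passed, with 525 CPM at 0 Gy and 337 CPM at 4 Gy (ratio 0.642, 0.611 to 0.674). The median log2 ratios of these 2 lists were -0.05 and -0.04. Of all 13091 genes measured in the general-capillary gate, 4.67% were lower and 7.10% higher. At those shares lists this short would hold few calls, so the counts are no result about the pathways.

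Over the 4 main gates 16 of the 49 list genes measured in any of them (32.7%) passed a line in at least 1, where 26.6% of all 13179 genes measured in any of them did, and the 12 with the widest ratios follow. In the aerocyte gate Edn1, the vasoconstrictor endothelin-1, was 6.20 and 61.5 CPM from 9 and 76 UMIs (9.91, 4.96 to 22.5), and with under 3 general-capillary markers it had 1 and 4 UMIs. Ets1 was 347 and 191 CPM there (0.550, 0.469 to 0.643), and Klf4, a transcription factor gene known to respond to shear stress, 727 and 1113 CPM (1.53, 1.41 to 1.66). Both held in the cells with under 3 general-capillary markers, with ratios of 0.565 and 1.58. Rbpj, the partner of the cut Notch receptor, had 58 and 30 UMIs (0.607, 0.377 to 0.959). Poglut1, an enzyme that adds glucose to Notch receptors, had 55 and 28 UMIs (0.598, 0.365 to 0.959), and Rfng, a relative of Lfng, 19 and 29 UMIs (1.79, 0.971 to 3.38).

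In the arterial gate Klf4 was 329 and 577 CPM (1.75, 1.30 to 2.40). Erg, a transcription factor gene of endothelial identity, had 7 and 26 UMIs (2.77, 1.17 to 7.57), and Ncstn, a subunit of the gamma-secretase that cuts Notch, 7 and 23 UMIs (2.45, 1.02 to 6.77). Adam10, the protease that makes the preceding cut, had 29 and 21 UMIs (0.541, 0.293 to 0.982). In the venous gate Klf4 was 594 and 955 CPM (1.61, 1.30 to 1.99), and Nr2f2, the transcription factor gene of venous identity, 392 and 608 CPM (1.55, 1.19 to 2.03). Arrb1, which encodes an arrestin that binds activated receptors, had 35 and 70 UMIs (1.83, 1.20 to 2.83). Nrp1, a VEGF co-receptor gene, was 455 and 285 CPM (0.626, 0.459 to 0.849). Most of these counts were small, and the interval of Rfng included 1.

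Apln and its receptor Aplnr were rarely found in the same cell. Among all endothelial cells thinned to 1000 UMIs, Apln and Aplnr UMIs met in 1 of 4733 cells at 0 Gy, where 118 had Apln and 733 Aplnr, and in 0 of 3668 cells at 4 Gy. Notch1 was present in 14.6% of the cells with its ligand Dll4 at 0 Gy, against 11.1% of all cells, and in 17.7% against 13.4% at 4 Gy. For Notch4 the shares were 14.5% against 14.0% at 0 Gy and 15.5% against 16.2% at 4 Gy. A Hey1 UMI was present in 30.9% of the 844 cells with Dll4 at 0 Gy, against 21.2% of all cells, and in 37.3% of 802 against 30.4% at 4 Gy. Within the general-capillary gate the Hey1 shares were 32.2% among Dll4 cells against 23.7% of all its cells at 0 Gy, and 38.9% against 33.5% at 4 Gy. Gja4 was present in 25.3% of Hey1 cells of that gate at 0 Gy against 28.0% of all its cells, and in 13.3% against 14.2% at 4 Gy. These shares describe cells of 1 library per dose, and the thinning leaves many true pairs undetected.

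The genes whose log2(CPM + 5) profile was most like a member's were taken over 10 points, the 5 non-overlapping gates (Lyve1-negative and Lyve1-positive general-capillary, aerocyte, arterial and venous) at both doses, among 5640 candidate genes. The points share 2 libraries and the small gates share a low depth. Apln was high only in the aerocyte points and Gja5 only in the arterial points. Their correlations thus mostly contrast that gate with the rest. Apln had Kdr, the VEGF receptor 2 gene, as its nearest (Pearson r 0.99), with Rgs6 and Fndc1 (0.99 and 0.98). Aplnr had Stmn1, Casd1 and Snhg20 (0.96, 0.96 and 0.95), and Gja4 had Slc6a6, Abracl and Hnrnph2 (0.98, 0.97 and 0.97). For Gja5 the nearest were Kcnn4, Plaat3 and Afap1l2 (0.98, 0.97 and 0.97), and for Hey1 they were Nisch, Snrnp70 and Dock6 (all above 0.97). Notch1 had Esm1, E030026E10Rik and Gm45074 (0.98, 0.97 and 0.96), and Notch4 had 8030487O14Rik, Hoxb4 and Brd2 (0.97, 0.97 and 0.95). Dll4 had Ino80, Smad6 and Ttf1 (0.95, 0.94 and 0.94), Jag1 had Snrnp48, Kank4 and Entpd1 (0.98, 0.98 and 0.98), and Lfng had Ik, Mrpl41 and Plpp1 (0.97, 0.96 and 0.96).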

How the data were processed

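Lung cells of 4 libraries, 1 for each dose and CD45 sort, were profiled with 10x Genomics 3′ chemistry; the 2 CD45-negative libraries carry the comparisons. The authors deposited 1 table per library of log2 values per cell and gene. These are log2(CPM + 1): back-transformed values summed to the CPM total in each cell, and 99.9993% to 99.9996% were whole multiples of the cell's smallest value within a tolerance of 0.02, so UMI counts were recovered. Per the submitters' processing notes the tools were Seurat, STAR and Partek and the genome build was mm10, with no role stated. Depth was 14885765 UMIs in 5979 barcodes at 0 Gy and 12448164 UMIs in 4313 barcodes at 4 Gy, with medians of 1894 and 2087 per barcode. Doublets were scored with Scrublet (scanpy 1.11.5); its automatic threshold marked under 0.1%, so the highest scores up to 0.8% per 1000 cells were removed (286 and 149 barcodes).

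UMIs were summed per gate and library. Levels are CPM with exact Poisson intervals, ratios have exact conditional binomial intervals and shares exact Clopper-Pearson intervals, all at 95%. A gene was measured with at least 30 UMIs over both libraries and called at 1.5-fold; log2 ratios used a pseudocount of 5 CPM. With 1 library per dose no test was made. Endothelial cells had at most 2 markers of any other lineage. Subtype markers found in 10% or more of endothelial cells at a first pass, or in 6% or more outside the class, were not used for the rare gates. The ratio and interval formulas were tested on simulated counts. All 10 members are named; of the pathway lists, the genes measured and called in a main gate, at most 12 by absolute log2 ratio, and for each member the 3 genes with the highest correlation. The members and lists were chosen with earlier results of these data known, and the scoring details of the gates were set after the values were seen. Alternatives were stricter gates, clusters (Leiden, resolution 2) in place of gates, ratios within clusters, thinning to 1000 UMIs, equal weight per cell, median-of-ratios scaling, doublets kept, and other count and fold limits.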

Additional observations from a re-analysis of the deposited data

Results flagged for a closer look

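Gja4 had dose ratios on opposite sides of 1 in different gates, with no interval including 1. The ratio of 4 Gy to 0 Gy was 0.457 in the general-capillary gate, 0.728 in the arterial gate and 0.583 in the venous gate, against 2.83 in the aerocyte gate. The difference between gates was not tested, since each gate and dose is 1 library. The aerocyte value rests on 17 and 41 UMIs, and in the aerocyte-gate cells with under 3 general-capillary markers Gja4 had 6 and 2 UMIs, a ratio of 0.468 with an interval of 0.0462 to 2.62.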

How the results depend on the processing

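Over the 51 member ratios in the 6 gates, 323 alternative values were computed. 301 moved by less than the counting interval and 21 by more. Of the called ratios 1 crossed 1: Gja4 in the aerocyte gate, at 0.468 without cells that carried at least 3 general-capillary markers, an alternative chosen after seeing the data. Of the ratios not called, 11 crossed 1 under at least 1 alternative. In the general-capillary gate the Aplnr ratio stayed between 0.367 and 0.383 and that of Gja4 between 0.436 and 0.463, and the 2 members called lower there were 2, but as medians within clusters, also chosen after seeing the data, the ratios were 0.714 and 0.705 and neither passed the line. Summed over the clusters with cells of both doses, the Aplnr ratio was 0.614, which passed the line, and that of Gja4 0.683, which did not. Of 122 alternative counts, 92 stayed within 1.5 times and 30 did not. The count of higher members in the general-capillary gate (1) was 0 with a stricter gate, thinning, median-of-ratios scaling or a 2-fold line, and 2 with the lower fold line. In the Lyve1-positive gate the higher count (1) was 0 with a stricter gate, median-of-ratios scaling or a 2-fold line. In the Lyve1-negative gate the lower count (2) was 1 at 2-fold, and the higher count (1) was 2 with at least 10 counts or the lower fold line and 0 with at least 100 counts or at 2-fold. In the aerocyte gate the higher count (3) was 0 with thinning, 0 among cells with under 3 general-capillary markers and 5 with the lower fold line, and the lower count (0) was 1 among those cells. In the arterial gate the lower count (0) was 1 with clusters, at least 10 counts or the lower fold line, and the higher count (0) was 1 with doublets kept and 2 with the lower fold line. In the venous gate the lower count (1) was 0 with a stricter gate, at least 100 counts or a 2-fold line, and 2 with at least 10 counts. Its higher count (1) was 2 with clusters or the lower fold line and 0 with thinning or at least 100 counts. Other count and fold limits change by construction what can be called. Thinning also lowers the UMIs of each gene, so a gene can fall under 30 and lose its call whatever its ratio. For the other settings the cause was not tested. Median-of-ratios scaling shifted log2 ratios by at most 0.05. No paired analysis was possible because each dose and sort is 1 library. Arterial and venous values are limited by depth, with 191618 to 259699 UMIs per gate and dose.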

Other observations

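The CD45-positive libraries of the same lungs, which no comparison above uses, gave another order of the members. Lfng, whose product modifies Notch receptors, was 82.5 CPM at 0 Gy (1984 UMIs in 5415 barcodes) and 82.2 CPM at 4 Gy (2993 UMIs in 9608 barcodes), with UMIs in 24.7% and 22.8% of barcodes, close to its CPM in the endothelial general-capillary gate. Notch1 was 11.7 and 11.3 CPM and Jag1 6.24 and 4.15 CPM. The other 7 members were at most 3.16 CPM at either dose, with Gja4 at 0.707 and 0.165 CPM and Aplnr at 0.457 and 0.220 CPM.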
